A study of Mus musculus with 2 samples.

Results

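In mouse kidney cells sorted for the PDGF receptors alpha and beta, 55 of 11109 kept cells carried at least 3 UMIs of Car3 together with at least 3 UMIs of Rbp4. Car3 encodes a carbonic anhydrase best known from muscle and fat, and Rbp4 encodes the protein that carries retinol in the blood. A UMI, or unique molecular identifier, is a random tag that counts one captured transcript. Of these Car3 Rbp4 cells, 44 lay among 923 kept cells of the library labelled UUO and 11 among 10186 kept cells of the library labelled sham. Kept cells had at least 500 UMIs, at least 300 detected genes and at most 20% of UMIs from mitochondrial genes. They also had at least 2 of the 6 stromal genes Col1a1, Col1a2, Col3a1, Dcn, Pdgfra and Pdgfrb, and at most 1 of the 4 excluding genes Pecam1, Ptprc, Epcam and Tyrobp. The cells were chosen by their measured UMIs of these genes, so each comparison of Car3 Rbp4 cells with the other kept cells of the same library is a description.

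The library labelled UUO came from kidney tissue taken 10 days after unilateral ureteral obstruction, an operation that ties off the ureter and leads to fibrosis. The library labelled sham came from kidney tissue after a sham operation. Both were of FVBN mice, whose age and number are not given in the sources used here, and both were made with droplet 3′ chemistry after enzymatic and mechanical dissociation. The deposited matrices summed to 6023072 UMIs over 1291 barcodes labelled UUO and 85359332 UMIs over 10812 labelled sham. There was 1 library per group, so no test between libraries was made and no result has a replicate check. All intervals are exact 95% counting intervals and cover counting error only.

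Fibroblasts and pericytes of the kidney lie between the tubules and around vessels, and both carry PDGF receptors. The hedgehog pathway, used below to order part of the results, runs between epithelium and such stromal cells in many organs. Hedgehog ligands bind the receptor Ptch1, which then releases Smo, and the Gli factors switch on targets that include Ptch1 itself and the decoy receptor Hhip. Foxf1, a forkhead factor of gut and lung mesenchyme, is another gene that responds to hedgehog ligands there.

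Promoter windows of genes on which the results turn are shown for orientation, with the strand on which the gene lies. Each gives the 250 bases before a transcription start from RefSeq on GRCm38.p6, read 5′ to 3′ on the strand of the gene. Rbp4 is 1 of the genes that chose the cells, Ccl8 is a chemokine that was higher in them in both libraries, and Ptch1 and Hhip are the hedgehog receptor and decoy. Capitals mark the Gli-type motif GACCACCC or the TATA-type motif TATAAA, searched on both strands, which do not overlap each other.
Rbp4, chr19:38124812-38125061: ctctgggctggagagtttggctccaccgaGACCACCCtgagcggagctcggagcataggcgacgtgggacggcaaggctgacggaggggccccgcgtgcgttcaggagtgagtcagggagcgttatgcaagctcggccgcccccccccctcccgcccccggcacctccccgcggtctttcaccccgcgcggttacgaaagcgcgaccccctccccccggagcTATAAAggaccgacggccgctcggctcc
Ccl8, chr11:82114935-82115184: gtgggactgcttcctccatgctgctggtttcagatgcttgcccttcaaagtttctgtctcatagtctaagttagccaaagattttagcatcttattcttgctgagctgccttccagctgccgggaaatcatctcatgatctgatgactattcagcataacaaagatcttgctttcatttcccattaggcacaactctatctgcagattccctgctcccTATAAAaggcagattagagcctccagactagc
Ptch1, chr13:63565736-63565985: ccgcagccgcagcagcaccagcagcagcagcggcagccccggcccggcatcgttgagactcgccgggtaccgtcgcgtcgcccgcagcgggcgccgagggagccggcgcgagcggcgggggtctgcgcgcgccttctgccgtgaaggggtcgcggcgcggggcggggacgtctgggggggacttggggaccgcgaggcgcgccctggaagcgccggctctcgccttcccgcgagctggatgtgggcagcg
Hhip, chr8:80058009-80058258: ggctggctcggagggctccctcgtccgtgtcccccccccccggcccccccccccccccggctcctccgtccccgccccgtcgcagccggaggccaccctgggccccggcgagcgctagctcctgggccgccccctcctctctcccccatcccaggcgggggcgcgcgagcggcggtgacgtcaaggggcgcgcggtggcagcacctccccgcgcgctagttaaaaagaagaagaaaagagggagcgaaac
Rbp4, Ptch1 and Hhip lie on the minus strand and Ccl8 on the plus strand. In the Rbp4 window GACCACCC began at position -221 and TATAAA at -28 from the start, and in the Ccl8 window TATAAA began at -32. A further Rbp4 window, for another start, held neither motif, and nor did the windows of Ptch1 and Hhip. Of 32851 promoter windows of the same 250 bases in that table, GACCACCC was in 231 (0.703%) and TATAAA in 4063 (12.4%). Car3, Ccl11, Foxf1 and Aard have no window shown.

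Car3 Rbp4 cells made up 4.77% of kept cells labelled UUO (exact binomial interval 3.48 to 6.35) and 0.108% of those labelled sham (0.0539 to 0.193). Their median depth was 8099 UMIs, against 4528 for the other kept cells, in the library labelled UUO. It was 8968 UMIs, against 7856, in the library labelled sham. Both rule genes were also more abundant in the other kept cells labelled UUO, and their part in the larger share there was not tested. Rbp4 stood in other kept cells at 499 CPM labelled UUO and 17.3 CPM labelled sham, where CPM (counts per 1e6) is UMIs scaled to the summed total. Car3 stood there at 96.5 CPM labelled UUO and 9.70 CPM labelled sham. Car3 was detected in 26.7% and Rbp4 in 50.2% of the other kept cells labelled UUO, and in 22.0% and 35.6% of 59 endothelial barcodes of that library, which should lack both.

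The 2 rule genes were abundant in most of the chosen cells. In the 44 cells labelled UUO, Car3 had 3 UMIs in the lowest cell, a median of 43 and 156 in the highest, and Rbp4 had 3, 27.5 and 69. In the 11 cells labelled sham, Car3 had 4, 22 and 53 UMIs and Rbp4 3, 6 and 11. Cells just inside the threshold, with either gene at 3 to 5 UMIs, numbered 6 in each library. Cells just outside, with both genes at 2 or more UMIs, numbered 23 labelled UUO and 2 labelled sham. Each gene alone marked a wider set. Rbp4 reached 3 UMIs with Car3 under 3 in 170 cells labelled UUO and 88 labelled sham, and Car3 was at 0 in 116 and 84 of them. Car3 reached 3 UMIs with Rbp4 under 3 in 15 cells labelled UUO and 52 labelled sham, and Rbp4 was at 0 in 4 and 46 of them.

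**Figure D1:**
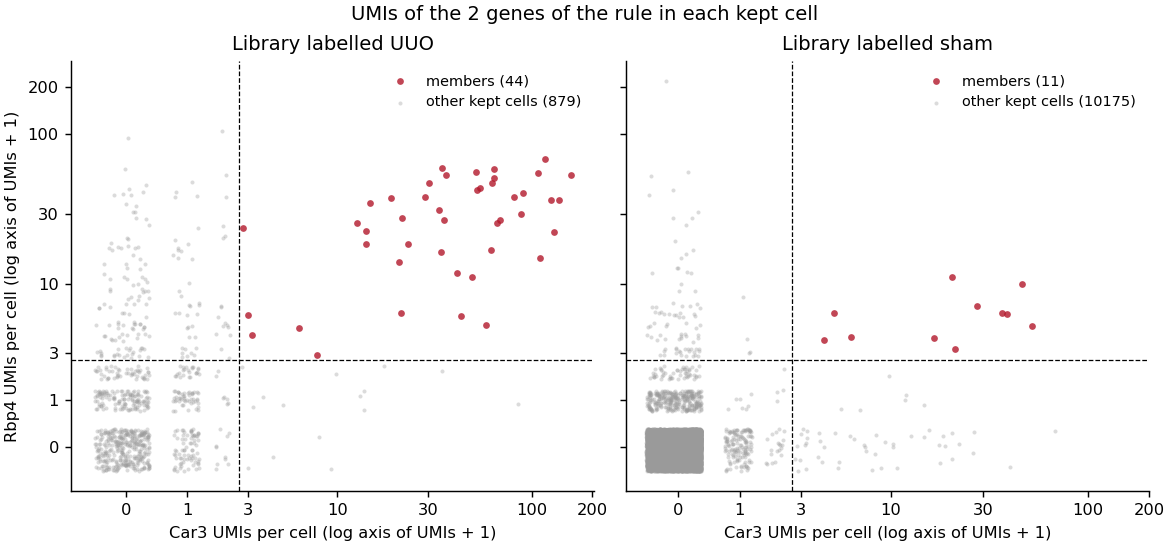
UMIs of Car3 (horizontal) and Rbp4 (vertical) in each kept cell, both on log axes of UMIs + 1, with a small random shift; red points are the Car3 Rbp4 cells, grey points the other kept cells and dashed lines the threshold of 3 UMIs. The 44 cells labelled UUO (left) reach 156 Car3 UMIs, and the 11 labelled sham (right) reach 53.

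All 55 cells had at least 4 of the 6 stromal genes, and 38 of 44 labelled UUO and 8 of 11 labelled sham had none of the 4 excluding genes. No cell carried a barcode found in both libraries, of which there were 16 in all, and none was among the cells of highest doublet score. Col1a1, a fibrillar collagen chain, stood at 2687 CPM in Car3 Rbp4 cells and 1172 CPM in other kept cells labelled UUO, and at 6701 CPM in these cells and 2263 CPM in the others in the library labelled sham. Pdgfra stood at 189 CPM in Car3 Rbp4 cells and 218 CPM in other kept cells labelled UUO, and at 186 CPM in these cells and 231 CPM in the others labelled sham. Pdgfrb stood at 81.9 CPM in Car3 Rbp4 cells and 168 CPM in other kept cells labelled UUO, and at 186 CPM in these cells and 289.6 CPM in the others labelled sham. The rule had required some of these genes.

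Ranked by the smaller of the log2 ratios in the libraries, the leading genes outside the rule were Foxf1, Moxd1, Bmp5, Aard and Hhip. A gene was counted as higher or lower when the ratio of summed CPM was at least 2-fold with 20 CPM added to each side, among genes with at least 50 CPM in either set of cells. In the library labelled UUO 185 of 3456 genes were higher in Car3 Rbp4 cells (5.35%) and 257 lower (7.44%). In the library labelled sham 259 of 3658 were higher (7.08%) and 277 lower (7.57%). These shares over all genes are the background for the counts of listed genes below. Of 2830 genes measured in both, 70 were higher in both (2.47%) and 70 lower in both (2.47%), and the 70 higher include the rule genes Car3, Rbp4 and Col1a1. Among those 2830 genes, the 70 were 48.6% of the 144 higher labelled UUO and 49.3% of the 142 higher labelled sham. Of the genes measured in both, 4 were higher labelled UUO and lower labelled sham, and 5 the reverse.

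The calls of named genes depended on the threshold of the rule. Foxf1, Ptch1, Hhip, Bmp5, Moxd1 and Aard were past 2-fold in both libraries under all 19 alternatives tried on the gene levels. Those alternatives that changed only the minimum level cannot alter a ratio and are no check of it. With 2 UMIs of each rule gene, which chose 67 cells labelled UUO and 13 labelled sham, several genes called below were short of 2-fold. Among genes called higher in both libraries these were Hoxa11 (log2 0.96 labelled UUO and 0.95 labelled sham), Ier2 (0.84 and 0.76), Dkk2 (0.50 labelled UUO), Sox9 (0.85 labelled UUO), Tbx18 (0.99 labelled UUO) and Pltp (0.92 labelled UUO). Among genes called lower in both they were Prrx1 (-0.68 labelled UUO and -0.95 labelled sham), Ogn (-0.094 and -0.93), Gas1 (-0.51 labelled UUO), Sfrp1 (-0.18 labelled UUO), Penk (-0.41 labelled UUO) and Ctgf (-0.92 labelled sham). Chchd10 turned labelled UUO (0.23), and Bmp2 (0.75) and Nkd1 (0.95) lost their call there.

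**Figure D2:**
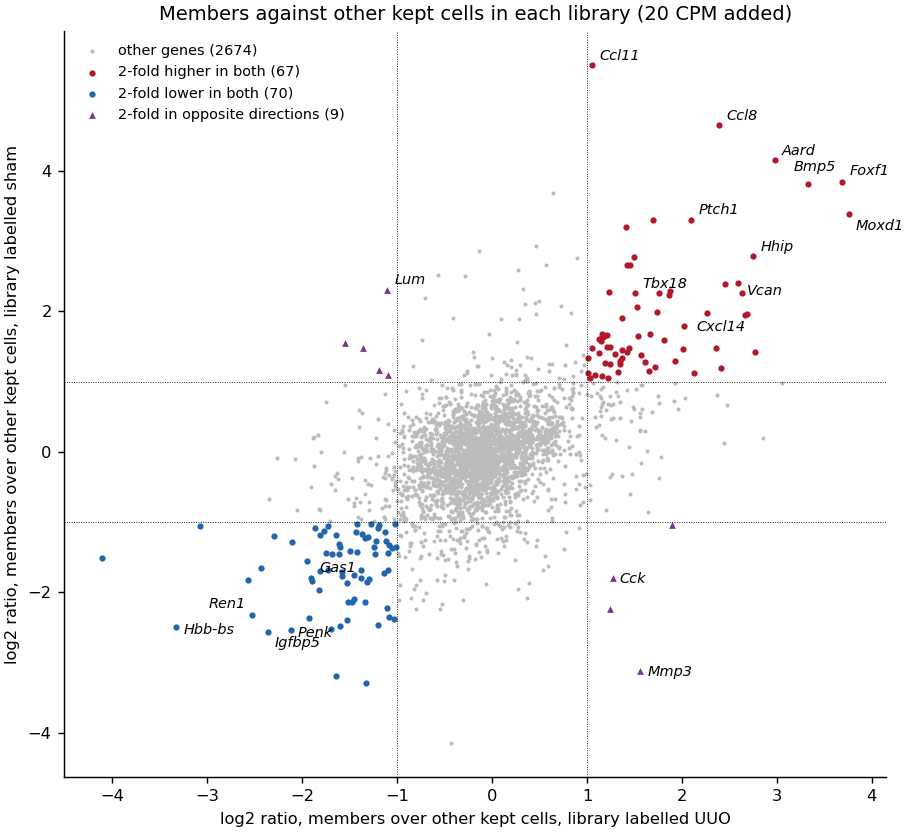
Each point is a gene measured in both libraries, without the 12 genes of the rule; axes are log2 ratios of summed CPM, Car3 Rbp4 cells over other kept cells, with 20 CPM added, for the library labelled UUO (horizontal) and sham (vertical). Foxf1, Moxd1, Bmp5 and Aard lie at the upper right, Igfbp5, Penk, Ren1 and Hbb-bs at the lower left, and Lum and Mmp3 in opposite corners.

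Of the hedgehog pathway, 3 genes were higher in Car3 Rbp4 cells of both libraries. Foxf1 had a UMI in 35 of 44 cells labelled UUO and 10 of 11 labelled sham, with a median of 2 UMIs in each set. Its summed level was 387 CPM in Car3 Rbp4 cells and 11.6 CPM in other kept cells labelled UUO, a ratio of 33.3 (24.3 to 46.1). Labelled sham, it was 341 CPM in Car3 Rbp4 cells and 5.25 CPM in other kept cells, a ratio of 64.9 (44.1 to 92.6). In endothelial barcodes, which give a measure of free RNA in the droplets, Foxf1 had a UMI in 4 of 59 labelled UUO, at a median of 4969 UMIs per barcode, and in 0 of 285 labelled sham, at 3718 UMIs (interval up to 1.29%). With every cell thinned to 1000 UMIs, Foxf1 was found in 27.3% of Car3 Rbp4 cells and 1.38% of other kept cells labelled UUO, and in 18.2% and 0.455% labelled sham.

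Ptch1, the receptor, had a UMI in 27 of 44 cells labelled UUO and 7 of 11 labelled sham. It stood at 149.6 CPM in Car3 Rbp4 cells and 19.6 CPM in other kept cells labelled UUO, a ratio of 7.63 (5.36 to 10.8), and at 309.8 CPM in these cells and 13.5 CPM in the others labelled sham, a ratio of 23.0 (15.5 to 33.1). Hhip, the decoy receptor, was detected in 28 of 44 cells labelled UUO and 6 of 11 labelled sham. It stood at 265 CPM in Car3 Rbp4 cells and 22.4 CPM in other kept cells labelled UUO, a ratio of 11.8 (8.90 to 15.7), and at 124 CPM in these cells and 0.912 CPM in the others labelled sham, a ratio of 136 (67.2 to 252). Gli1, the target most often used to read the pathway, was under the 50 CPM needed for a count. It had 13 UMIs in the 44 cells, 36.7 CPM, against 10.6 CPM in other kept cells labelled UUO (ratio 3.46, 1.73 to 6.43), and 2 UMIs in the 11 cells labelled sham (ratio 3.06, 0.369 to 11.1).

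The remaining pathway members did not move together. Gas1, a co-receptor that binds hedgehog ligands, was lower in both: 48.0 CPM in Car3 Rbp4 cells and 233 CPM in other kept cells labelled UUO, and 41.3 CPM in these cells and 199 CPM in the others labelled sham. Smo stood at 56.5 CPM in Car3 Rbp4 cells and 39.4 CPM in other kept cells labelled UUO and 41.3 CPM in these cells and 44.0 CPM in the others labelled sham. The ligands Shh, Ihh and Dhh had 0 counts in Car3 Rbp4 cells of both libraries. Of the 16 pathway genes listed, 5 passed the minimum level in the library labelled UUO and 4 in that labelled sham. In each library 3 were higher and 1 lower, with median log2 ratios of 2.10 and 3.04. Foxf1, Ptch1 and Hhip reached the minimum level only in Car3 Rbp4 cells, and Gas1 only in other kept cells. The filter thus fixed the direction of each. The list was drawn up after these genes had been seen among the highest, so its counts and medians only describe it.

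A group of transcription factors ran alongside. Gata2, a factor of blood and endothelial cells, stood at 178 CPM in Car3 Rbp4 cells and 16.2 CPM in other kept cells labelled UUO (ratio 11.0, 7.77 to 15.4), and at 114 CPM in these cells and 5.63 CPM in the others labelled sham (20.2, 10.0 to 36.4). Endothelial barcodes also carried Gata2, 25.4% of them labelled UUO and 17.5% labelled sham, against 26 of 44 and 6 of 11 Car3 Rbp4 cells. Tbx18 and Tbx3, T-box factors known from the mesenchyme of the developing ureter, were higher in both libraries as well. Tbx18 stood at 81.9 CPM in Car3 Rbp4 cells and 15.8 CPM in other kept cells labelled UUO, and at 82.6 CPM in these cells and 1.47 CPM in the others labelled sham. Tbx3 stood at 119 CPM in Car3 Rbp4 cells and 18.0 CPM in other kept cells labelled UUO, and at 165 CPM in these cells and 19.6 CPM in the others labelled sham.

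Sox9, a factor of cartilage and of injured and developing kidney, had 50.8 CPM in Car3 Rbp4 cells and 5.80 CPM in other kept cells labelled UUO, and 134 CPM in these cells and 4.42 CPM in the others labelled sham. Of the cells labelled sham, 1 cell held 53.8% of the Sox9 UMIs. Of the 12 T-box, Sox9 and Gata factors listed, 5 passed the minimum level labelled UUO and 4 labelled sham, and Gata2, Sox9, Tbx18 and Tbx3 were higher in both. These 4 reached the minimum level only in Car3 Rbp4 cells, so the filter fixed their direction. With 50 CPM added the log2 ratio of Sox9 labelled UUO was 0.85. Where Rbp4 alone chose the cells, Gata2, Sox9 and Tbx3 were short of 2-fold in both libraries. This list too was made after values were seen. Hoxa11, a homeobox gene of the developing kidney, stood at 164 CPM in Car3 Rbp4 cells and 38.4 CPM in other kept cells labelled UUO and at 114 CPM in these cells and 40.1 CPM in the others labelled sham. Of 21 Hox genes listed, 2 passed the minimum level labelled UUO and 6 labelled sham, and Hoxa11 was the 1 gene higher in both. Labelled sham its log2 ratio was 0.86 with 50 CPM added. For Hoxa11, it is not known whether reads from the antisense gene Hoxa11os that overlaps it were told apart. Prrx1, a factor of limb and other mesenchyme, was lower in both, with 31.0 CPM in Car3 Rbp4 cells and 97.7 CPM in other kept cells labelled UUO, and 0 counts in these cells against 90.01 CPM in the others labelled sham, at least 2.91-fold lower at a floor of 3 counts over the 11 cells. Of 19 stromal transcription factors listed (7 compared labelled UUO and 8 labelled sham), 3 were higher and 1 lower labelled UUO, and 3 higher and 2 lower labelled sham, with median log2 ratios of 0.52 and 0.26.

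The leading genes were found in the same cells. The 7 genes Foxf1, Ptch1, Hhip, Bmp5, Moxd1, Aard and Gata2 were chosen for this count after their values were seen. At least 3 of the 7 had a UMI in 39 of 44 Car3 Rbp4 cells labelled UUO (88.6%, 75.4 to 96.2) and in 11 of 879 other kept cells (1.25%). Labelled sham, this held for 9 of 11 Car3 Rbp4 cells (81.8%, 48.2 to 97.7) and 27 of 10175 other kept cells (0.265%). Of the endothelial barcodes, 0 of 59 labelled UUO (interval up to 6.06%) and 0 of 285 labelled sham (up to 1.29%) had 3. The median was 5 genes per cell in both sets, and 2 cells labelled UUO had none.

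Cells past the threshold in 1 rule gene only were counted in the same way. With Car3 at 3 UMIs or more and Rbp4 under 3, at least 3 of the 7 genes were present in 1 of 15 cells labelled UUO (6.67%, 0.169 to 31.9) and 6 of 52 labelled sham (11.5%, 4.35 to 23.4). With Rbp4 at 3 or more and Car3 under 3, they were present in 8 of 170 cells labelled UUO (4.71%, 2.05 to 9.06) and 7 of 88 labelled sham (7.95%, 3.26 to 15.7). These cells are among the other kept cells. Labelled sham, 27 other kept cells in all had at least 3 of the 7 genes, against 9 Car3 Rbp4 cells. More of the cells with at least 3 of these genes thus lay outside the rule than inside it there.

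**Figure D3:**
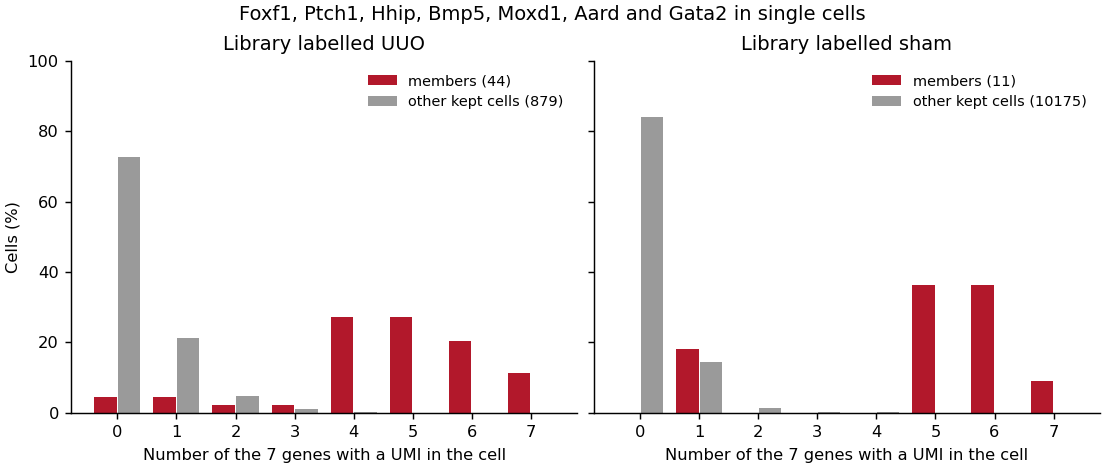
Share of cells (vertical, %) by the number of the 7 genes with a UMI (horizontal), with Car3 Rbp4 cells in red and other kept cells in grey; the library labelled UUO is on the left and that labelled sham on the right. At least 3 genes were present in 88.6% and 81.8% of Car3 Rbp4 cells and in 1.25% and 0.265% of other kept cells.

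The whole profile, without the 12 genes of the rule, set the cells apart in the library labelled UUO. On 20 principal components, 86.5% of the 15 nearest neighbours of a Car3 Rbp4 cell were Car3 Rbp4 cells, against 1.62% for other kept cells and 4.66% if all cells were alike. Of the 44 cells, 39 had such cells as most of their neighbours and 1 had none. In the library labelled sham the mean was 17.0%, against 0.0740% for other kept cells and 0.0982% if all were alike, where 11 cells allow 66.7% at most. There 3 of 11 cells had none. The share depends on how many such cells a library holds, so it does not compare the libraries.

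Secreted signals were among the leading genes. Bmp5, a bone morphogenetic protein, had a UMI in 34 of 44 cells labelled UUO and 8 of 11 labelled sham. It stood at 226 CPM in Car3 Rbp4 cells and 4.40 CPM in other kept cells labelled UUO (ratio 51.3, 31.7 to 86.4), and at 268 CPM in these cells and 0.530 CPM in the others labelled sham (507, 299 to 843). Bmp4 stood at 353 CPM in Car3 Rbp4 cells and 181 CPM in other kept cells labelled UUO, under the 2-fold mark with 20 CPM added, and was higher labelled sham at 454 CPM in these cells and 49.9 CPM in the others. Bmp2 was higher labelled UUO, at 98.8 CPM in Car3 Rbp4 cells and 24.8 CPM in other kept cells, and had 1 count in the 11 cells labelled sham (ratio 0.599, 0.0152 to 3.34). Bmp5 in both libraries, and Bmp2 labelled UUO, reached the minimum level only in Car3 Rbp4 cells, so the filter fixed their direction. Of 15 BMP and TGF-beta ligands and modulators (8 compared labelled UUO and 8 labelled sham), 2 were higher and 2 lower labelled UUO, and 2 higher and 1 lower labelled sham, with median log2 ratios of -0.45 and -0.05. Among all genes compared, 5.35% were higher and 7.44% lower labelled UUO, and 7.08% and 7.57% labelled sham.

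WNT inhibitors lay in both directions. Notum, an enzyme that inactivates WNT proteins, stood at 133 CPM in Car3 Rbp4 cells and 2.40 CPM in other kept cells labelled UUO (ratio 55.2, 28.9 to 114), with a UMI in 23 of 44 cells. Labelled sham, it had 2 counts in the 11 cells (ratio 15.0, 1.79 to 55.3). Wif1, a secreted WNT inhibitor, had 4 counts in the 44 cells labelled UUO, 11.3 CPM, against 1 count, 0.200 CPM, in other kept cells (ratio 56.4, 5.58 to 2779). Labelled sham, it stood at 289 CPM in Car3 Rbp4 cells and 0.345 CPM in other kept cells (838, 478 to 1468), with a UMI in 7 of 11 cells and 42.9% of its UMIs in 1 cell. Notum labelled UUO and Wif1 labelled sham reached the minimum level only in Car3 Rbp4 cells, so the filter fixed their direction.

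Dkk2, a secreted modulator of WNT receptors, was higher in both, at 361 CPM in Car3 Rbp4 cells and 152 CPM in other kept cells labelled UUO and 640.2 CPM in these cells and 201 CPM in the others labelled sham. Labelled UUO its log2 ratio of 1.14 was 0.60 against other kept cells with no Car3 or Rbp4 UMI and 0.95 without the excluding genes. Sfrp1 and Frzb, secreted decoys for WNT proteins, were lower in both. Sfrp1 stood at 161 CPM in Car3 Rbp4 cells and 546 CPM in other kept cells labelled UUO and at 72.3 CPM in these cells and 819.8 CPM in the others labelled sham. Frzb had 3 counts in Car3 Rbp4 cells, 8.47 CPM, and 65.0 CPM in other kept cells labelled UUO (ratio 0.1302, 0.0267 to 0.384), and 114 CPM in these cells and 433 CPM in the others labelled sham. Nkd1, an intracellular inhibitor, was higher labelled UUO, at 257 CPM in Car3 Rbp4 cells and 70.4 CPM in other kept cells, and stood at 299 CPM in these cells and 239 CPM in the others labelled sham. Sfrp2 stood at 234 CPM in Car3 Rbp4 cells and 165 CPM in other kept cells labelled UUO and was higher labelled sham, at 248 CPM in these cells and 15.1 CPM in the others, with 75% of its UMIs in 1 cell.

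Of the 11 WNT antagonists and NKD genes (8 compared labelled UUO and 8 labelled sham), 3 were higher and 2 lower labelled UUO, and 3 higher and 3 lower labelled sham, with median log2 ratios of 0.65 and 0.55. Among all genes compared, 5.35% were higher and 7.44% lower labelled UUO, and 7.08% and 7.57% labelled sham. Of 11 WNT ligands (2 compared labelled UUO and 3 labelled sham), listed after values were seen, Wnt4 was higher labelled UUO and Wnt5a labelled sham, and none was lower. Wnt4 stood at 257 CPM in Car3 Rbp4 cells and 52.6 CPM in other kept cells labelled UUO and at 207 CPM in these cells and 95.1 CPM in the others labelled sham. Wnt5a stood at 22.6 CPM in Car3 Rbp4 cells and 24.8 CPM in other kept cells labelled UUO and at 217 CPM in these cells and 46.1 CPM in the others labelled sham.

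**Figure D4:**
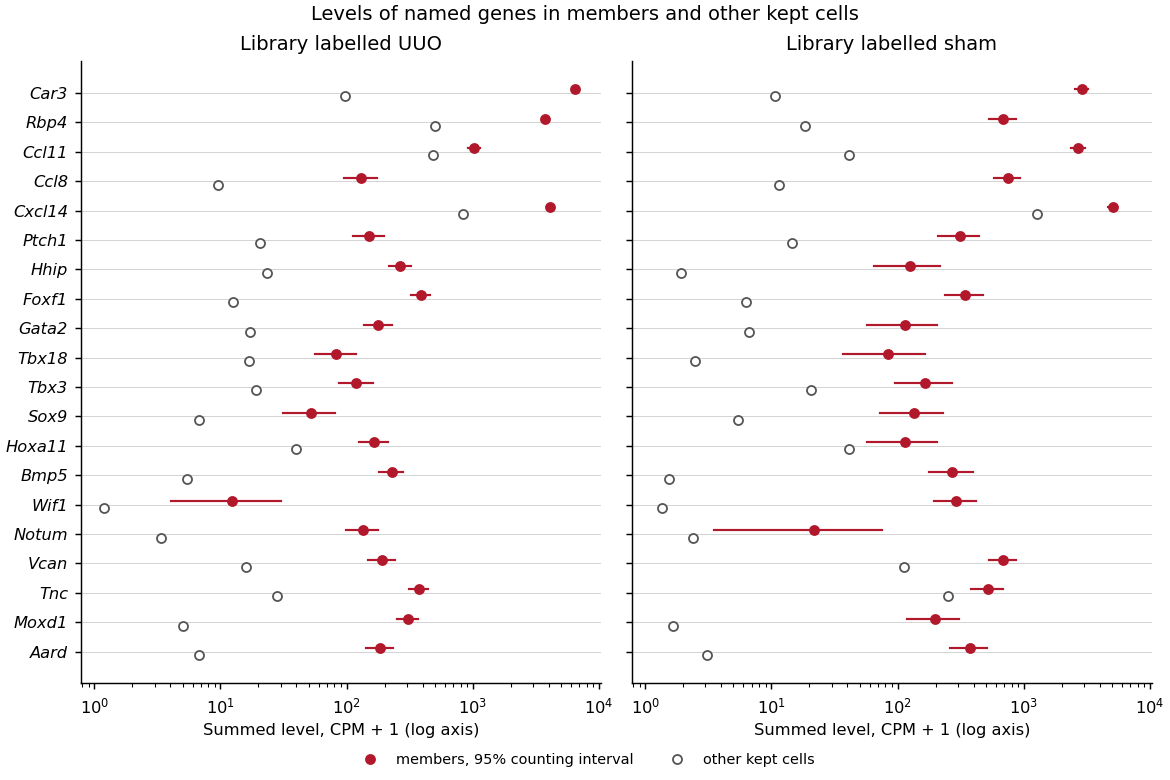
Summed level of 20 genes (horizontal, CPM + 1 on a log axis) in Car3 Rbp4 cells (red, with the 95% counting interval) and in other kept cells (open circles), for the library labelled UUO (left) and sham (right). In Car3 Rbp4 cells Foxf1 stood at 387 CPM labelled UUO and 341 CPM labelled sham, while Notum stood at 133 CPM labelled UUO and Wif1 at 289 CPM labelled sham.

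Ccl11, or eotaxin, a chemokine that draws eosinophils, was named as a marker of these cells but was not used to choose them. It was detected in 39 of 44 Car3 Rbp4 cells labelled UUO, with 0 UMIs in the lowest, a median of 3 and 49 in the highest cell. It was detected in 9 of 11 labelled sham, with 0, 18 and 88 UMIs, and 1 cell held 33.6% of them. The summed level was 1025 CPM in Car3 Rbp4 cells and 485 CPM in other kept cells labelled UUO, a ratio of 2.11 (1.89 to 2.36) and a log2 ratio of 1.05 with 20 CPM added. In the library labelled sham it was 2705 CPM in Car3 Rbp4 cells and 40.1 CPM in other kept cells, a ratio of 67.5 (59.3 to 76.6) and a log2 ratio of 5.50.

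Ccl11 therefore marked the cells far more in the library labelled sham. In the library labelled UUO it was also present in 40.8% of other kept cells and 28.8% of endothelial barcodes, against 7.57% and 3.16% in the library labelled sham. Its log2 ratio labelled UUO was 0.69 when 2 UMIs of each rule gene chose the cells, 0.87 against other kept cells with at least 4 stromal genes, and 0.64 among cells with a Y-linked and no Xist UMI. Under those 3 settings it was short of 2-fold.

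Other chemokines were also high. Ccl8, which draws monocytes, stood at 129.8 CPM in Car3 Rbp4 cells and 8.60 CPM in other kept cells labelled UUO (ratio 15.1, 9.74 to 23.4), and at 743 CPM in these cells and 10.4 CPM in the others labelled sham (71.2, 55.2 to 90.7). It was uneven: 14 of 44 and 9 of 11 cells had a UMI, and 1 cell held 37.0% of the UMIs labelled UUO and 43.1% of those labelled sham. Cxcl14 was detected in all 55 cells, at 4126 CPM in Car3 Rbp4 cells and 842 CPM in other kept cells labelled UUO (4.90, 4.62 to 5.20) and 5059.6 CPM in these cells and 1271 CPM in the others labelled sham (3.98, 3.63 to 4.35), where 1 cell held 36.3%.

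The rest of the chemokines did not follow. Ccl21a, a lymphoid chemokine with near-identical copies that make its counts uncertain, was lower in both, at 96.0 CPM in Car3 Rbp4 cells and 668 CPM in other kept cells labelled UUO, and 1 count in these cells against 87.2 CPM in the others labelled sham (ratio 0.118, 0.00300 to 0.660). Against other kept cells with no Car3 or Rbp4 UMI its log2 ratio labelled UUO was 0.09 in place of -2.57. Of 11 CC chemokines (7 compared labelled UUO and 5 labelled sham) 2 were higher and 1 lower labelled UUO, and 2 higher and 2 lower labelled sham, with median log2 ratios of -0.77 and -0.86. Of 9 CXC chemokines (5 compared labelled UUO and 5 labelled sham) 1 was higher and 2 lower labelled UUO, and 2 higher and 0 lower labelled sham, with medians of -0.62 and -0.33. The shares over all genes compared were 5.35% higher and 7.44% lower labelled UUO, and 7.08% and 7.57% labelled sham.

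Among matrix genes, the large proteoglycan Vcan was higher in both, at 189 CPM in Car3 Rbp4 cells and 14.8 CPM in other kept cells labelled UUO (ratio 12.8, 9.04 to 18.0) and 682 CPM in these cells and 112 CPM in the others labelled sham (6.06, 4.69 to 7.72). Tnc, or tenascin C, stood at 373 CPM in Car3 Rbp4 cells and 27.2 CPM in other kept cells labelled UUO (13.7, 10.7 to 17.5) and at 516 CPM in these cells and 251 CPM in the others labelled sham (2.05, 1.52 to 2.71), where its log2 ratio with 20 CPM added was 0.98. Ctgf, the growth factor now called Ccn2, was lower in both, at 64.9 CPM in Car3 Rbp4 cells and 698 CPM in other kept cells labelled UUO and 72.3 CPM in these cells and 171 CPM in the others labelled sham. Spp1, or osteopontin, was lower too, at 62.1 CPM in Car3 Rbp4 cells and 297 CPM in other kept cells labelled UUO and 4574 CPM in these cells and 13445 CPM in the others labelled sham, where 1 cell held 72.5% of its UMIs and every endothelial barcode carried it. Its direction labelled UUO did not hold: with 2 UMIs of each rule gene the log2 ratio was 0.34 in place of -1.95. Of 12 matricellular and injury matrix genes (10 compared labelled UUO and 11 labelled sham) 1 was higher and 2 lower labelled UUO, and 0 higher and 4 lower labelled sham, with medians of -0.33 and -0.78. The shares over all genes compared were 5.35% higher and 7.44% lower labelled UUO, and 7.08% and 7.57% labelled sham.

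Small leucine-rich proteoglycans split. Ogn was lower in both, at 178 CPM in Car3 Rbp4 cells and 539 CPM in other kept cells labelled UUO, and 1 count in these cells against 60.3 CPM in the others labelled sham (ratio 0.171, 0.00433 to 0.954). Lum was lower labelled UUO, at 542 CPM in Car3 Rbp4 cells and 1188 CPM in other kept cells (ratio 0.456, 0.393 to 0.527), and higher labelled sham, at 826 CPM in these cells and 151 CPM in the others (5.48, 4.34 to 6.83). Against other kept cells with no Car3 or Rbp4 UMI its log2 ratio labelled UUO was -0.07 in place of -1.10. Of 10 such genes (8 compared labelled UUO and 6 labelled sham) 0 were higher and 3 lower labelled UUO, and 3 higher and 1 lower labelled sham. The 3 higher labelled sham include the rule gene Dcn. Of 8 fibrillar collagens (5 compared labelled UUO and 5 labelled sham) 1 was higher labelled UUO and 3 labelled sham, and none was lower. Col1a1 was the call labelled UUO, and Col1a1 and Col1a2 were among those labelled sham. Both had been used by the rule. Labelled UUO, Col1a1 was short of 2-fold with 2 UMIs of each rule gene (log2 0.78) and among cells with a Y-linked and no Xist UMI (0.86). Of 14 basement membrane genes (10 compared labelled UUO and 9 labelled sham) 0 were higher and 1 lower in each library.

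Moxd1, a copper-dependent monooxygenase, stood at 305 CPM in Car3 Rbp4 cells and 4.00 CPM in other kept cells labelled UUO (ratio 76.2, 47.0 to 129.6), and at 196 CPM in these cells and 0.665 CPM in the others labelled sham (295, 165 to 505). Aard stood at 183 CPM in Car3 Rbp4 cells and 5.80 CPM in other kept cells labelled UUO (31.6, 20.1 to 50.8), and at 372 CPM in these cells and 2.06 CPM in the others labelled sham (181, 122 to 260.2). Armh4 stood at 246 CPM in Car3 Rbp4 cells and 22.8 CPM in other kept cells labelled UUO and 82.6 CPM in these cells and 1.40 CPM in the others labelled sham. Sft2d2, a membrane protein of vesicle transport, stood at 181 CPM in Car3 Rbp4 cells and 11.2 CPM in other kept cells labelled UUO and 103 CPM in these cells and 11.5 CPM in the others labelled sham. None of the 4 was above 22.8 CPM in other kept cells of either library. They reached the minimum level only in Car3 Rbp4 cells, so the filter fixed their direction.

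Few genes from the families of the 2 rule genes could be compared. Over all genes compared, 5.35% were higher labelled UUO and 7.08% labelled sham, so lists this short allow few calls. Of 16 retinoid carriers and enzymes (6 compared labelled UUO and 6 labelled sham), Aldh1a2, which makes retinoic acid, was higher labelled UUO at 135 CPM in Car3 Rbp4 cells and 50.4 CPM in other kept cells, and stood at 516 CPM in these cells and 325 CPM in the others labelled sham. None of those compared was higher or lower in both, and their medians were -0.14 labelled UUO and -0.06 labelled sham. Aldh1a2 was short of 2-fold labelled UUO with 2 UMIs of each rule gene (log2 0.38) and with 50 CPM added (0.89). The 10 other carbonic anhydrases listed were all under the minimum level in both libraries, so none could be called.

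Metabolic and hormone genes were compared as lists too. Over all genes measured in both libraries, 2.47% were higher in both and 2.47% lower in both. Of 18 lipid handling genes 10 were compared labelled UUO and 8 labelled sham. Pltp, a plasma phospholipid transfer protein, was the 1 gene of these higher in both, at 460.1 CPM in Car3 Rbp4 cells and 187 CPM in other kept cells labelled UUO and 434 CPM in these cells and 142 CPM in the others labelled sham. Cyp2e1, an ethanol-oxidising cytochrome, was higher labelled UUO at 533 CPM in Car3 Rbp4 cells and 47.8 CPM in other kept cells (ratio 11.2, 9.17 to 13.6). Labelled sham, Car3 Rbp4 cells had 0 counts of it, where a floor of 3 counts is 30.9 CPM, and other kept cells were under that level. Igf1, a growth factor, stood at 452 CPM in Car3 Rbp4 cells and 283 CPM in other kept cells labelled UUO and was higher labelled sham at 1208 CPM in these cells and 75.4 CPM in the others (16.0, 13.2 to 19.2). Igfbp5, which binds it, was lower in both, at 79.0 CPM in Car3 Rbp4 cells and 489 CPM in other kept cells labelled UUO, and 1 count in these cells against 160.0 CPM in the others labelled sham (ratio 0.0646, 0.00163 to 0.360). Of 10 IGF axis genes (6 compared labelled UUO and 6 labelled sham) 0 were higher and 2 lower labelled UUO, and 1 higher and 2 lower labelled sham.

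Further genes were lower in both libraries, and the cells they came from were not tested. Penk, the precursor of enkephalins, stood at 70.6 CPM in Car3 Rbp4 cells and 374 CPM in other kept cells labelled UUO, and at 0 counts in these cells against 95.8 CPM in the others labelled sham, at least 3.09-fold lower. Ren1, or renin, of juxtaglomerular cells, stood at 70.6 CPM in Car3 Rbp4 cells and 502 CPM in other kept cells labelled UUO, and at 0 counts in these cells against 80.4 CPM in the others labelled sham, at least 2.59-fold lower. Rem1, a small GTPase, stood at 19.8 CPM in Car3 Rbp4 cells and 121 CPM in other kept cells labelled UUO, and had 2 counts in these cells against 139.6 CPM in the others labelled sham (ratio 0.148, 0.0179 to 0.535). Chchd10, a mitochondrial protein, stood at 45.2 CPM in Car3 Rbp4 cells and 225 CPM in other kept cells labelled UUO, and had 1 count in these cells against 85.8 CPM in the others labelled sham (ratio 0.120, 0.00305 to 0.670). Of 12 complement genes (8 compared labelled UUO and 6 labelled sham) 0 were higher and 4 lower labelled UUO, and 0 higher and 2 lower labelled sham. Among all genes compared, 7.44% were lower labelled UUO and 7.57% labelled sham.

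Hbb-bs, a haemoglobin chain whose copies are nearly alike, stood at 178 CPM in Car3 Rbp4 cells and 1962 CPM in other kept cells labelled UUO, and at 0 counts in these cells against 92.6 CPM in the others labelled sham, at least 2.99-fold lower. Its log2 ratio labelled UUO was -3.33, and -0.22 against other kept cells with at least 4 of the 6 stromal genes. The 5 erythrocyte genes summed to 319 CPM in Car3 Rbp4 cells and 4615 CPM in other kept cells labelled UUO and 20.7 CPM in these cells and 177 CPM in the others labelled sham. Genes of other cells in the comparison set therefore moved with some of the lower genes, and their part in the counts of lower genes was not tested beyond this.

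Markers of cells that also use Car3 or Rbp4 were low. Of 16 adipocyte genes 12 had 0 counts in the 44 cells labelled UUO and 13 in the 11 labelled sham, among them Adipoq, Plin1, Cfd and Pparg in both. Their sum was 178 CPM in these cells and 459 CPM in the others labelled UUO and 31.0 CPM in these cells and 153 CPM in the others labelled sham, and the list includes Fabp4, a fatty acid carrier that endothelium also makes, at 113 CPM in Car3 Rbp4 cells and 315 CPM in the others labelled UUO. Of 10 skeletal muscle genes 8 and 9 had 0 counts, and the sums were 36.7 CPM in Car3 Rbp4 cells and 139 CPM in other kept cells labelled UUO and 72.3 CPM in these cells and 192 CPM in the others labelled sham. Des, which is also on the list of mural cell genes, was the 1 muscle gene past the minimum level in each library. Labelled sham, Des alone made up the sum in Car3 Rbp4 cells. Of 14 adipogenic progenitor genes (11 compared labelled UUO and 9 labelled sham) 2 were higher and 2 lower labelled UUO, and 1 higher and 2 lower labelled sham, with none higher in both.

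Markers of further cell types were compared as sums. Endothelial genes summed to 313 CPM in Car3 Rbp4 cells and 911 CPM in other kept cells labelled UUO and 114 CPM in these cells and 464 CPM in the others labelled sham. Mural cell genes summed to 556 CPM in Car3 Rbp4 cells and 2157 CPM in other kept cells labelled UUO and 2788 CPM in these cells and 2969 CPM in the others labelled sham. Macrophage genes summed to 67.7 CPM in Car3 Rbp4 cells and 105 CPM in other kept cells labelled UUO and 309.8 CPM in these cells and 604 CPM in the others labelled sham. Each of these sums was below that of the other kept cells. For mural cell genes labelled sham, the median per cell was 1537 CPM in Car3 Rbp4 cells and 1367 CPM in other kept cells. Of the 5 mural cell genes compared there, Myh11 was higher and Des, Ren1 and Tagln were lower.

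Proximal tubule genes summed to 824 CPM in Car3 Rbp4 cells and 3318 CPM in other kept cells labelled UUO and 10.3 CPM in these cells and 63.7 CPM in the others labelled sham, and loop and distal tubule genes to 42.3 CPM in these cells and 80.6 CPM in the others labelled UUO and 51.6 CPM in these cells and 193 CPM in the others labelled sham. Mesothelial, Schwann cell, lymphocyte and urothelial genes each summed to at most 16.9 CPM in Car3 Rbp4 cells of both libraries. Of 12 adventitial fibroblast genes (10 compared labelled UUO and 6 labelled sham) 0 were higher and 4 lower labelled UUO, and 1 higher and 3 lower labelled sham. Among all genes compared, 5.35% were higher and 7.44% lower labelled UUO, and 7.08% and 7.57% labelled sham. Of the 12 lists of other cell types, the adipocyte, skeletal muscle, endothelial, mural cell and erythrocyte lists had genes past the minimum level in both libraries, and none of those genes was higher in both. The other lists had no gene past it in 1 or both libraries and could give no such gene.

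Lists that describe cell state were mixed. The shares over all genes compared were 5.35% higher and 7.44% lower labelled UUO, and 7.08% higher and 7.57% lower labelled sham. Counts of 0 or 1 in lists this short are near those shares. Ier2, an immediate early gene that dissociation also induces, was higher in both, at 2125 CPM in Car3 Rbp4 cells and 995 CPM in other kept cells labelled UUO and 2282 CPM in these cells and 1064 CPM in the others labelled sham. It was just past 2-fold, with log2 ratios of 1.08 labelled UUO and 1.09 labelled sham, and fell short with 2 UMIs of each rule gene in both libraries, with 5 UMIs labelled sham (0.998) and among cells with a Y-linked and no Xist UMI labelled UUO (0.83). Ier2 also fell short in both libraries with Car3 alone (0.99 labelled UUO and 0.05 labelled sham) and with Rbp4 alone (0.61 and 0.37). Of 10 immediate early genes (10 compared labelled UUO and 10 labelled sham) 4 were higher labelled UUO and 3 labelled sham, and none lower, with medians of 0.94 and 0.91, and the part of dissociation was not tested. Of 10 contractile genes (7 compared labelled UUO and 7 labelled sham) 0 were higher and 3 lower labelled UUO, and 0 higher and 1 lower labelled sham. Among 15 detoxification genes (12 compared labelled UUO and 8 labelled sham) 0 were higher in either library, 2 lower labelled UUO and 3 labelled sham. Of 11 iron handling genes (7 compared labelled UUO and 7 labelled sham) 0 were higher and 3 lower labelled UUO, and 1 higher and 1 lower labelled sham. Of 18 growth factor and hormone receptors (8 compared labelled UUO and 8 labelled sham) 0 were higher and 1 lower labelled UUO, and 1 higher and 2 lower labelled sham. Of 14 oxidative metabolism genes 7 passed the minimum level in each library, and none of those was higher or lower.

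The 44 and the 11 cells were then set against each other. Of 3742 genes, 436 were higher in the 44 cells labelled UUO than in the 11 labelled sham (11.7%) and 489 lower (13.1%). The other kept cells differed as well, with 390 of 3508 genes higher labelled UUO (11.1%) and 190 lower (5.42%). Spp1, which is known to rise in injured kidney, ran against the labels in the other kept cells, at 297 CPM labelled UUO and 13445 CPM labelled sham, and no difference is read as caused by obstruction.

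Several leading genes were compared between the 2 sets. The intervals here cover counting error only, not the spread between cells or libraries, so they do not test a difference. Foxf1 was 1.13 times as high labelled UUO as labelled sham (0.771 to 1.71), Bmp5 0.841 times (0.534 to 1.36), Moxd1 1.55 times (0.948 to 2.68) and Tbx18 0.991 times (0.442 to 2.51). Ptch1 was 2.07-fold higher labelled sham (1.28 to 3.30), Aard 2.03-fold higher labelled sham (1.31 to 3.09) and Hhip 2.14-fold higher labelled UUO (1.17 to 4.29). Ccl11 was 2.64-fold higher in the 11 cells labelled sham (2.24 to 3.10), while the other kept cells had 12.1-fold more of it labelled UUO (11.5 to 12.8). Igf1 did the same, 2.68-fold higher labelled sham in Car3 Rbp4 cells (2.09 to 3.42) and 3.75-fold higher labelled UUO in other kept cells (3.53 to 3.97).

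The 6 genes most in excess labelled UUO had 0 counts in the 11 cells labelled sham, so their folds are lower bounds at a floor of 3 counts over those cells. Olfr1033, an olfactory receptor gene, was at least 29.2-fold higher at 906 CPM, against a 7.31-fold excess in other kept cells. Clec3b, or tetranectin, was at least 27.9-fold higher at 864 CPM, against 104-fold in other kept cells. Sfrp4, a WNT decoy, was at least 20.4-fold higher at 632 CPM, with 54.0% in 1 cell, against 27.4-fold. Inmt, a methyltransferase, was at least 17.9-fold higher at 556 CPM, against 241-fold. Cyp2e1 was at least 17.2-fold higher, against 18.1-fold, and E2f1, a cell cycle factor, at least 10.1-fold higher at 313 CPM, against 48.4-fold. All 6 were thus also higher labelled UUO in the other kept cells.

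The 6 genes most in excess labelled sham were Spp1, Stmn1, Acta2, Lgmn, Wif1 and Inhba. Acta2, smooth muscle actin, stood at 164 CPM labelled UUO and 2334 CPM labelled sham in Car3 Rbp4 cells, 14.3-fold higher labelled sham (10.6 to 19.4), against 2.38-fold in other kept cells. Within the library labelled UUO it was lower in Car3 Rbp4 cells, at 164 CPM in these cells and 597 CPM in the others, and labelled sham it stood at 2334 CPM in these cells and 1421 CPM in the others. Lgmn, a lysosomal protease, stood at 155 CPM labelled UUO and 1704 CPM labelled sham in Car3 Rbp4 cells, 11.0-fold higher labelled sham (8.04 to 15.2), against 4.25-fold. Spp1 was 73.7-fold higher labelled sham (48.0 to 119), against 45.3-fold.

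Stmn1, a microtubule regulator of dividing cells, stood at 16.9 CPM labelled UUO and 475 CPM labelled sham, 28.0-fold higher labelled sham (11.9 to 80.4), with 50% of UMIs in 1 cell, against 2.53-fold. Inhba, an activin chain, had 0 counts labelled UUO and 176 CPM labelled sham, at least 20.7-fold lower labelled UUO, against 13.5-fold. Wif1 was 25.6-fold higher labelled sham (8.96 to 100.5), against 1.72-fold in other kept cells. At least 3 of 8 cell cycle genes, a list made after values were seen, had a UMI in 0 of 44 cells labelled UUO, with an interval up to 8.04%, and in 2 of 11 labelled sham. For other kept cells the counts were 4 of 879 and 146 of 10175.

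**Figure D5:**
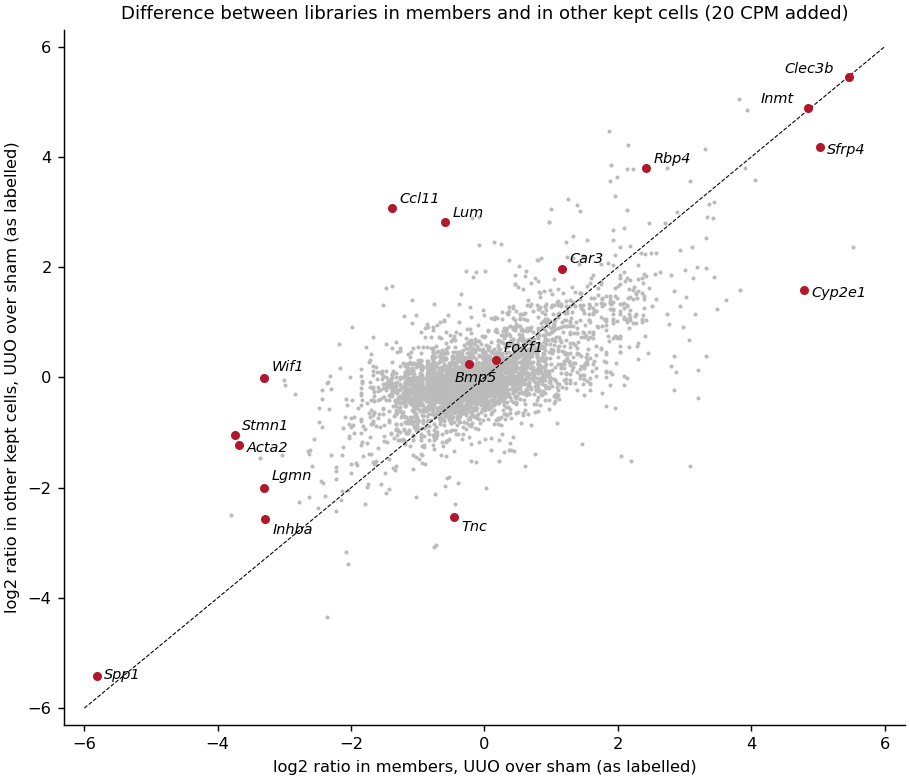
Each point is a gene; axes are log2 ratios of summed CPM, UUO over sham as labelled and with 20 CPM added, in Car3 Rbp4 cells (horizontal) and other kept cells (vertical), with named genes in red and a dashed line of equality. Ccl11 lies left of 0 for Car3 Rbp4 cells and above 0 for other kept cells, and Acta2 lies far to the left.

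The libraries also differ in how cells divide by sex-linked transcripts. Cells with a Y-linked and no Xist UMI were 18 of 44 Car3 Rbp4 cells and 249 of 879 other kept cells labelled UUO, and 8 of 11 and 1691 of 10175 labelled sham. Xist stood at 215 CPM in Car3 Rbp4 cells and 296 CPM in other kept cells labelled UUO, and had 3 counts in the 11 cells against 880.4 CPM in other kept cells labelled sham (ratio 0.0352, 0.00726 to 0.103). Cells of both kinds were thus present in each library, the labels do not say whether tissue of several mice was pooled, and the part of this in the differences was tested only by the repeat on cells with a Y-linked and no Xist UMI.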

How the data were processed

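The authors deposited expected counts of UMIs, not normalised, for each cell and gene. Per the submitters' processing notes they used Salmon 0.13.1 with alevin and mm10. A UMI that matches several genes is divided among them by alevin, so 91.2% of nonzero values labelled UUO and 92.3% labelled sham were whole (tolerance 1e-06). The sources used here do not give how barcodes were chosen or whether strand was used, and near-identical or overlapping genes are uncertain. Among the leading genes, Foxf1 overlaps Gm20388, Ptch1 overlaps A930032L01Rik and Bmp5 overlaps Gm47723, each on the same strand.

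Cells were chosen by the rule given in the results. Expected counts were summed over Car3 Rbp4 cells and over other kept cells of each library, rounded and scaled to CPM by the summed total. Ratios in the text are of CPM without an addition and carry exact conditional binomial intervals, and shares carry exact Clopper-Pearson intervals. Calls use log2 ratios with 20 CPM added and a minimum of 50 CPM. With 1 library per group no test was made, since cells are not replicates. A count of 0 was set against 3 counts over the cells of the set. Endothelial barcodes, a measure of free RNA, passed the depth filter, carried at least 3 of Pecam1, Cdh5, Kdr, Emcn and Egfl7 and had no Pdgfra or Pdgfrb UMI. Shares were also taken after thinning each cell to 1000 UMIs, which left out 81 other kept cells labelled UUO, 280 labelled sham and no Car3 Rbp4 cell. Neighbours were found on 2000 variable genes without the genes of the rule. Doublets were scored with Scrublet (scanpy 1.11.5, expected rate 0.06), marking the highest 0.8% per 1000 cells, and were left in unless stated. Calculations used Python 3.11.15, numpy 2.4.6, pandas 2.3.3, scipy 1.17.1 and scikit-learn 1.9.0, and were tested on simulated data.

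The cells, the lists and the tests were chosen with earlier results of these data known. All 439 listed symbols were matched, 3 by an older symbol. Genes were named by rule, leaving out mitochondrial, ribosomal, Gm and rule genes: the 12 highest and 8 lowest in both libraries, the 6 highest in each, the 6 highest and 6 lowest between the 2 sets of Car3 Rbp4 cells, and up to 4 members per list. Car3, Rbp4, Ccl11 and the other rule genes could always be named. Further list members, to spell out a count, and the genes of opposite direction in the closing section were named after their values were seen. Gene identifiers were matched to GENCODE M21 for 52806 of 53698 entries. Promoters are from RefSeq on GRCm38.p6, where 11 of 15 genes searched had a window.

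Alternatives were other thresholds of the rule, each rule gene alone, stricter depth and excluding genes, doublet removal, other scaling, additions, minimum levels and comparison cells, leaving out the cell of most UMIs, thinning, and other neighbour settings. Comparison cells with 4 stromal genes, and cells with a Y-linked and no Xist UMI, were added after the data were seen. Some genes that the naming rule could select are not reported here.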

Additional observations from a re-analysis of the deposited data

Results flagged for a closer look

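Genes at least 2-fold apart in opposite directions in the libraries were singled out, and the difference between the libraries was not tested for any of them. With 20 CPM added, the log2 ratio of Car3 Rbp4 cells over other kept cells of Mmp3, a matrix-degrading protease, was 1.56 labelled UUO and -3.12 labelled sham. Its level in Car3 Rbp4 cells labelled UUO was 325 CPM, against 96.7 CPM in other kept cells, and 1 cell held 82.6% of its UMIs. Lum, a collagen-binding proteoglycan, had -1.10 labelled UUO and 2.31 labelled sham. Ackr3, a receptor that takes up the chemokine Cxcl12, had -1.55 labelled UUO and 1.55 labelled sham, on 6 and 8 counts in Car3 Rbp4 cells. Cck, the precursor of the peptide cholecystokinin, had 1.27 labelled UUO and -1.80 labelled sham. Ifi27l2a, an interferon-induced gene, had -1.19 labelled UUO and 1.16 labelled sham. Rasgrp2, a nucleotide exchange factor of small GTPases, had -1.36 labelled UUO and 1.47 labelled sham. Smpdl3a, a phosphodiesterase, had -1.10 labelled UUO and 1.10 labelled sham, on 20 and 7 counts in Car3 Rbp4 cells. The entries Gm12840 and Gm20186 had 1.24 and 1.89 labelled UUO, and -2.24 and -1.04 labelled sham.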

How the results depend on the processing

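No paired analysis was possible because each group has 1 library. The 11 cells labelled sham and the low counts of many genes limit every value there, and 1 cell held much of several genes. Median-of-ratios scaling moved the median log2 ratio over genes from -0.13 to about 0 labelled UUO and from -0.21 to about 0 between the sets of Car3 Rbp4 cells. Of named genes past 2-fold, 939 of 1045 values labelled UUO under the alternatives kept the direction past 2-fold, 86 the direction only and 20 turned. Labelled sham these were 978, 72 and 14 of 1064, and between the sets of Car3 Rbp4 cells 802, 42 and 11 of 855. Alternatives that changed only the minimum level cannot alter a log2 ratio. Between the sets of Car3 Rbp4 cells, a change of comparison cells cannot either. Such values are counted among those kept and are no check. Most of the lost calls came with Rbp4 alone, 74 of 156 values, with Car3 alone, 59, and with 2 UMIs of each, 35. The causes of the changes below were not tested, and log2 ratios are of Car3 Rbp4 cells over other kept cells unless set as UUO over sham.

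With 2 UMIs of each rule gene, 67 cells labelled UUO were chosen. Then 82 genes were higher and 116 lower labelled UUO, 161 higher labelled sham, 30 higher in both and 25 lower in both, and Ccl11 had 0.69 labelled UUO. Directions turned labelled UUO for Chchd10 (0.23), Lum (0.17), Smpdl3a (0.068) and Spp1 (0.34). With 5 UMIs, 7 cells were chosen labelled sham, 114 genes were lower in both and Ccl11 had 5.75 labelled sham. Turned were Mmp3 labelled UUO (-2.06) and UUO over sham (-0.60), and Smpdl3a labelled sham (-0.30).

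With Car3 alone, 63 cells were chosen labelled sham. Then 159 genes were lower labelled UUO, 36 higher and 27 lower labelled sham, 13 higher and 10 lower in both, and 310 lower UUO than sham, and Ccl11 had 1.67 labelled UUO and 4.17 labelled sham. Turned labelled sham were Cck (0.53), Ogn (0.67), Penk (0.84), Prrx1 (0.093) and Sfrp1 (0.056), and UUO over sham Ccl11 (0.50), Igf1 (0.48), Mmp3 (-0.15), Prrx1 (-0.91) and Sox9 (0.25).

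With Rbp4 alone, 214 cells labelled UUO and 99 labelled sham were chosen. Then 66 genes were higher and 99 lower labelled UUO, 93 higher and 38 lower labelled sham, 26 higher and 12 lower in both, and 174 lower UUO than sham, and Ccl11 had 0.26 labelled UUO and 3.65 labelled sham. Turned labelled UUO were Ackr3 (1.18), Cck (-0.71), Ccl21a (0.42), Chchd10 (0.20), Dkk2 (-0.77), Lum (1.01), Ogn (0.45), Penk (0.26), Prrx1 (0.30), Sfrp1 (0.73) and Smpdl3a (0.077). Labelled sham they were Dkk2 (-0.48), Hoxa11 (-0.22), Mmp3 (0.69), Ogn (1.60), Olfr1033 (0.13), Prrx1 (0.36), Sfrp4 (4.18) and Stmn1 (-0.030), and UUO over sham Ackr3 (0.75), Gm12840 (-0.50), Mmp3 (-1.49), Prrx1 (-0.13) and Rasgrp2 (0.40).

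With none of the 4 excluding genes, Ccl21a (0.22) and Fabp4 (0.0088) turned labelled UUO. Against comparison cells without Car3 or Rbp4, Ccl21a (0.089) turned labelled UUO, and Ccl11 had 1.96 labelled UUO and 5.82 labelled sham. Among cells with a Y-linked and no Xist UMI, 18 were chosen labelled UUO, where Ccl11 had 0.64 and Cck turned (-0.38). Ccl11 labelled UUO had 1.38 with equal weight per cell, 1.25 against cells within the depth of Car3 Rbp4 cells and 0.87 against cells with 4 stromal genes. With 30 neighbours the share labelled sham was 9.09%, where 33.3% is the most that 11 cells allow, against 17.0% with 15, where it is 66.7%.

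Genes lower UUO than sham numbered 313 with median-of-ratios scaling. With 5 CPM added they numbered 737, 409 genes were higher labelled sham and Ccl11 had 5.91 labelled sham. With 50 CPM added, 117 genes were higher and 135 lower labelled UUO, 134 higher and 131 lower labelled sham, 43 higher and 36 lower in both, and 287 higher and 212 lower UUO than sham, and Ccl11 had 4.94 labelled sham. With a minimum of 20 CPM, or none, 652 genes were lower labelled sham, and 870 were higher and 736 lower UUO than sham. With a minimum of 100 CPM, 171 genes were lower labelled UUO, 141 higher and 130 lower labelled sham, 46 lower in both, and 226 higher and 255 lower UUO than sham.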
